A study of Mus musculus with 28 samples.

Results

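Immune checkpoints are receptors on T cells and natural killer (NK) cells, and their ligands on other cells, that dampen an immune response. The genes described here are 10 checkpoint genes: Pdcd1 (PD-1) with its ligands Cd274 (PD-L1) and Pdcd1lg2 (PD-L2), Ctla4 with its ligands Cd80 and Cd86, Tigit, Lag3, and Havcr2 (TIM-3) with its ligand Lgals9 (galectin-9). They were chosen by gene name, and all 10 were found once in each of the 2 count tables, which hold 55573 and 57126 genes.

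The libraries came from skin of 12-week-old female mice whose hair had been removed 5 days before exposure. The whole-body experiment compared wild-type mice (WT) with Vsir-/- mice (KO), which lack VISTA, another inhibitory checkpoint protein encoded by Vsir, in all cells. The keratinocyte experiment compared Vsir fl/fl mice, which carry the floxed gene (FL), with K14Cre Vsir fl/fl mice (cKO), which carry the same floxed gene and Cre driven by the keratin 14 promoter of keratinocytes. In each experiment 1 group per genotype received no ultraviolet light (NoUV) and 1 received 500 mJ/cm2 UVB (UV), which gives 8 groups, with 3 libraries per group in the whole-body experiment and 4 in the keratinocyte experiment. The titles place the harvest 3 h after UVB, whereas the treatment protocol says 1 day, so the time behind every UV comparison below is uncertain. The K14Cre mice remain able to make VISTA in every skin cell that does not express Cre. The libraries are labelled as separate replicates, and p-values measure the spread between them.

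T cells need a signal from their antigen receptor and a second signal from CD28, which binds CD80 and CD86 on antigen-presenting cells. CTLA-4 competes for the same ligands, and PD-1, once bound by PD-L1 or PD-L2, recruits phosphatases that quench both signals. TIGIT binds PVR and nectin-2, LAG-3 binds MHC class II, and TIM-3 is carried by T cells, NK cells and dendritic cells. In skin, PD-L1 is made by keratinocytes and many immune cells and is induced by interferon gamma, whereas PD-L2 is mostly a product of dendritic cells and macrophages.

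Libraries of the whole-body experiment held 30470828 to 43837915 counts, and those of the keratinocyte experiment 7117198 to 31138604, the shallowest being FL NoUV 1 (7117198) and cKO UV 3 (7509742). Libraries KO NoUV 2 and KO UV 3 stood apart in another way, with 1.02% and 2.07% of counts in Gm42418, a gene that overlaps ribosomal RNA, against 7.21% to 14.2% in the other 10 libraries of that experiment. Vsir was at 38.4 ± 6.65 CPM (the counts-per-million scale, with library sizes scaled for composition; mean ± SD, n = 3) in WT NoUV and 6.14 ± 0.951 in KO NoUV, and it was lower in KO at a log2 difference of -2.77 over both treatments. In cKO skin Vsir did not pass the test (log2 difference 0.17, 95% interval -0.30 to 0.64, adjusted p = 0.821 by edgeR's quasi-likelihood test over all genes), so the deletion could not be seen in these libraries. The series title names epidermis, but the libraries held keratins and collagen together: in WT NoUV, Krt10 was at 11967 ± 632 CPM and Col1a1 at 1386 ± 531 CPM.

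Averaged over both genotypes, Pdcd1lg2 and Tigit were lower and Lag3 was higher after UV in the whole-body experiment. Lag3 and Cd80 were higher in the keratinocyte experiment. These are 3 of 9 genes tested over WT and KO, where 37.3% of all 20365 genes were called (adjusted p under 0.05), and 2 of 8 over FL and cKO, where 24.3% of 19718 were. The log2 change of Tigit was -2.78 in KO and -0.30 in WT, where it was not called. The Lag3 call over WT and KO was lost in 8 of the 12 fits that left out 1 library. Cd80 was higher in KO than in WT skin over both treatments, 1 of 9 tested against 7.45% of all genes, and no gene was called between cKO and FL (0 of 8, against 0% of all genes; 2 had an unadjusted p under 0.05 and DESeq2 called 1). Pdcd1 itself was too scarce to test in either experiment.

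Levels were compared between genes as CPM per kb of exon, since longer genes collect more reads. Lgals9 was the most abundant at 21.4 ± 4.96 CPM per kb over the 12 whole-body libraries and 26.1 ± 4.74 over the 16 keratinocyte libraries. Cd274 followed at 5.55 ± 1.87 and 7.01 ± 1.86, and Cd86 at 3.36 ± 1.03 and 3.03 ± 0.970. The first 3 places were thus held by ligands, while the other 2 ligands, Cd80 (0.801 ± 0.283 and 0.908 ± 0.371) and Pdcd1lg2 (0.338 ± 0.230 and 0.316 ± 0.171), stood lower. Among receptors, Havcr2 was highest in both experiments, at 2.25 ± 0.740 and 0.957 ± 0.344, and Pdcd1 lowest, at 0.0546 ± 0.0486 and 0.0711 ± 0.0888. Lgals9 exceeded Cd274 in 12 of 12 and 16 of 16 libraries, and Cd274 exceeded Cd86 in 11 of 12 and 16 of 16. Havcr2 exceeded Cd80 in 12 of 12 whole-body libraries, and Tigit exceeded Pdcd1 in 11 of 12. Lag3 and Ctla4 changed order between the experiments. Ctla4 exceeded Lag3 in 10 of 12 whole-body libraries, and Lag3 exceeded Ctla4 in 14 of 16 keratinocyte libraries. Some other neighbours were not separated. In the whole-body experiment Lag3 exceeded Pdcd1lg2 in 7 of 12 libraries and Pdcd1lg2 exceeded Tigit in 6 of 12. In the keratinocyte experiment Havcr2 exceeded Cd80 in 9 of 16, Ctla4 exceeded Pdcd1lg2 in 8 of 16, and Tigit exceeded Pdcd1 in 8 of 16. In bulk skin, fewer cells of a type and less RNA per cell cannot be told apart.

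**Figure D1:**
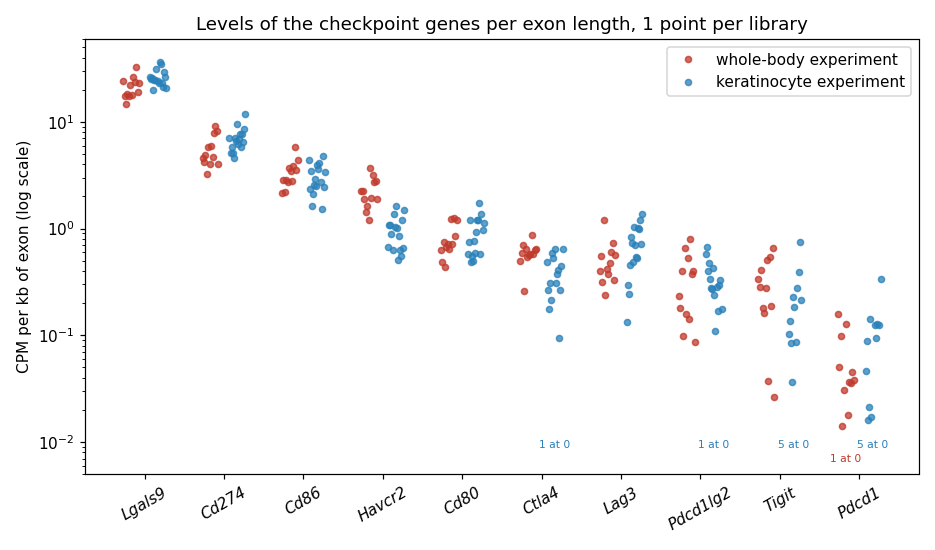
Level of each checkpoint gene in CPM per kb of exon on a log scale, 1 point per library, with the number of libraries at 0 written at the bottom. Lgals9 and Cd274 lie highest in both experiments, and Pdcd1 lies lowest by its mean, with 5 of the 16 keratinocyte libraries at 0.

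Pdcd1 (ENSMUSG00000026285, chr1:94038305-94052553, minus strand, GRCm38) encodes PD-1, the receptor of activated and exhausted T cells. Its counts ran from 0 to 14 per whole-body library and from 0 to 13 per keratinocyte library. In WT it was at 0.308, 0.189 and 0.0597 CPM without UV and at 0.0968, 0.0276 and 0 CPM after UV. Most libraries held no more than 3 counts, the floor under which a level was not read, and the gene failed the filter on expression in both experiments.

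Cd274 and Pdcd1lg2 are neighbours on chromosome 19, 22823 bases apart on the same strand: Cd274 (ENSMUSG00000016496) spans chr19:29367455-29388095 and Pdcd1lg2 (ENSMUSG00000016498) chr19:29410919-29471161 in GRCm38. The 250 bases before their start sites, from RefSeq on GRCm38.p6, are shown because the adjacent genes differed in their UV values; 8 of the 10 genes had an entry, Cd86 and Lag3 being the others. They cover chr19:29367188-29367437 and chr19:29410669-29410918 on the plus strand, and capitals mark a match to the NF-kB motif.
Cd274: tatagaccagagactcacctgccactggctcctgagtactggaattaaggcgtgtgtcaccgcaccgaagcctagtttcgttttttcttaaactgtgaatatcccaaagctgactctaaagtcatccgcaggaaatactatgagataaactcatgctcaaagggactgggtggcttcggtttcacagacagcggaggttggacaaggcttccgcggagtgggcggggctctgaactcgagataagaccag
Pdcd1lg2: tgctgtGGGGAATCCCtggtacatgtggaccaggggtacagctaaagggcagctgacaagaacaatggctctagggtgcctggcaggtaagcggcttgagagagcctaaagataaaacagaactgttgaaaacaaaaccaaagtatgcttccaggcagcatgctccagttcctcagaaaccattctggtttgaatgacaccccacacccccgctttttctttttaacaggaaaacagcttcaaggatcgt
Both strands from 250 bases before to 50 after each start were searched for the interferon gamma-activated site (GAS, TTCNNNGAA), the interferon-stimulated response element (ISRE, GAAA blocks with 2 bases between them), AP-1 (TGANTCA) and NF-kB. No match was found for Cd274. The Pdcd1lg2 match lies at positions -244 to -235 from the start, and 8.46% of the 32851 RefSeq promoters of this length hold an NF-kB match, so it is a description of the letters only.

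Pdcd1lg2, whose product is the second PD-1 ligand, was lower after UV in the whole-body experiment. WT libraries held 0.463, 0.789 and 1.28 CPM without UV and 0.355, 0.193 and 0.313 CPM after UV. KO libraries held 1.04, 1.55 and 0.782 CPM without UV and 0.276, 0.731 and 0.171 CPM after UV. Every UV library of a genotype lay below every NoUV library of that genotype. The log2 change was -1.54 ± 0.551 (SE) in WT (adjusted p = 0.0674) and -1.56 ± 0.532 in KO (adjusted p = 0.0515), and over both genotypes it was -1.55 ± 0.383 (adjusted p = 0.00625, edgeR, n = 3 libraries per group). The call held without any single library and without KO NoUV 2 and KO UV 3 together (log2 change -1.20, adjusted p = 0.0433). It was lost with scores of hair follicle and skeletal muscle markers as covariates (-1.32, adjusted p = 0.0824), and the value turned to 0.52 (adjusted p = 0.750) with a score of T cell markers as the covariate.

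In the keratinocyte experiment Pdcd1lg2 was at 1.13, 1.33, 0.784 and 0.940 CPM in FL NoUV and at 0.469, 0.217, 0.562 and 0.331 CPM in FL UV, with no overlap. In cKO the groups overlapped, with 0.663, 0.550, 0.535 and 0.837 CPM without UV and 0.576, 0.641, 0 and 0.348 CPM after UV. The 0 came from the shallow library cKO UV 3, where 3 counts would amount to 0.400 CPM. The log2 changes were -1.35 ± 0.478 in FL (adjusted p = 0.0965) and -0.55 ± 0.480 in cKO (adjusted p = 0.508), and the change over both genotypes, -0.95 ± 0.338, missed the threshold (adjusted p = 0.0506, edgeR); it passed with DESeq2 (adjusted p = 0.0260) and without cKO UV 3 (-0.83, adjusted p = 0.0355). The difference of the changes, cKO minus FL, was 0.80 with a 95% interval of -0.64 to 2.23.

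Cd274, the PD-L1 gene, did not pass edgeR's test in any of the 15 comparisons. WT libraries held 16.7, 17.7 and 21.3 CPM without UV and 15.4, 11.9 and 14.5 CPM after UV. KO libraries held 21.5, 28.2 and 29.6 CPM without UV and 16.8, 33.0 and 14.6 CPM after UV. Without UV every KO library lay above every WT library, whereas after UV the groups overlapped and KO UV 2 lay above every NoUV library. Over both treatments the KO minus WT difference was 0.57 ± 0.188 on the log2 scale (95% interval 0.16 to 0.97, adjusted p = 0.0739), and the UV change over both genotypes was -0.36 ± 0.188 (adjusted p = 0.152). The KO minus WT difference was called by DESeq2 (adjusted p = 0.0321) and by edgeR with no filter (adjusted p = 0.0430). Without library KO UV 2 the UV change was -0.61 and was called (adjusted p = 0.00511).

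FL libraries held 25.8, 18.6, 21.2 and 18.4 CPM of Cd274 without UV and 22.3, 25.0, 27.7 and 21.0 CPM after UV. In cKO the values were 16.5, 25.5, 23.9 and 34.6 CPM without UV and 27.7, 23.4, 31.3 and 43.3 CPM after UV. All 4 groups overlapped. The UV change over FL and cKO was 0.26 ± 0.153 (adjusted p = 0.235), and cKO minus FL was 0.33 ± 0.153 (95% interval 0.00 to 0.65, adjusted p = 0.450). Reads at Cd274 may include some from AC119228.1, an antisense gene on the minus strand that overlaps an exon, because the strand setting of the counting is not given in the sources used here.

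The genes whose level followed Cd274 most closely were Gbp5, Gbp4 and Gbp7, guanylate-binding proteins induced by interferon gamma. Over the 28 libraries, with each experiment centred on its own mean, Pearson's r across log2 CPM was 0.82 for each of Gbp5 and Gbp4 and 0.81 for Gbp7, the highest of 13362 genes compared. After centring on group means r was 0.74, 0.85 and 0.79. These r are descriptions over libraries that share groups and depth. Library KO UV 2, highest in its group for Cd274, held 55.4 CPM of Gbp4 against 14.0 and 18.95 in KO UV 1 and KO UV 3. Library cKO UV 4, the highest of all 28 for Cd274, held 43.0 CPM of Gbp4, the highest of the keratinocyte experiment, and 17 counts of Ifng against 0 to 12 in the other 15.

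Irf1 and Ifng, which act upstream of PD-L1, were higher in KO than in WT over both treatments, a comparison that called 7.45% of all genes. Irf1, a transcription factor induced by interferon, was higher by 0.72 ± 0.198 (adjusted p = 0.0460). Ifng, which encodes interferon gamma, was higher by 2.38 ± 0.547 (adjusted p = 0.0263, both log2 by edgeR). The number of genes called there ran from 235 to 3076 when 1 library was left out. Ifng counts were 1, 2 and 2 in WT NoUV and 16, 23 and 15 in KO NoUV, and 0, 1 and 5 in WT UV against 7, 2 and 8 in KO UV. The KO libraries without UV stood above all WT libraries without UV, and after UV the genotypes overlapped, with most counts near the floor of 3. None of the 15 regulators of PD-L1 and PD-1 signalling was called lower in KO. In KO skin the summed level of 7 NK cell markers was also higher without UV, at 14.4 to 16.8 CPM against 5.93 to 8.39 CPM in WT, and that of 13 T cell markers was 65.5 to 75.8 CPM against 49.4 to 60.2 CPM. Markers of dendritic cells (77.6 to 85.0 against 48.5 to 66.4 CPM), Langerhans cells, endothelium and skeletal muscle (18581 to 21844 against 9459 to 14537 CPM) were likewise higher without overlap. Keratinocyte markers were lower (15357 to 20000 against 26175 to 38822 CPM), and the remaining marker lists overlapped. The part of these shifts in the Cd274 values was not tested.

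**Figure D2:**
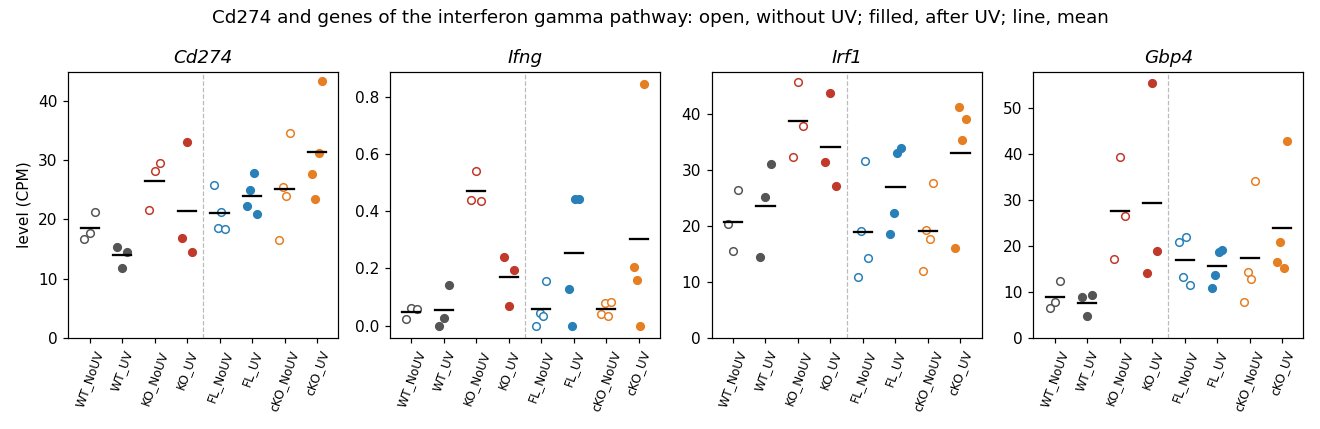
Levels in CPM of Cd274, Ifng, Irf1 and Gbp4 in each library of the 8 groups (open points without UV, filled after UV, lines at group means). KO NoUV points lie above WT NoUV points in every panel, and the FL and cKO groups overlap.

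Ctla4 (ENSMUSG00000026011, chr1:60887000-60915832, plus strand), the inhibitory receptor of regulatory and activated T cells, did not pass edgeR's test in any comparison. It ranged from 0.607 to 2.03 CPM over WT and KO libraries and from 0 to 1.51 CPM in the keratinocyte experiment. The UV change was -0.30 ± 0.228 over WT and KO (95% interval -0.79 to 0.19, adjusted p = 0.327) and -0.22 ± 0.431 over FL and cKO (95% interval -1.13 to 0.69, adjusted p = 0.747). With the hair follicle and skeletal muscle scores the latter was -1.76 (adjusted p = 0.0335). Each pair of UV and NoUV groups overlapped. Foxp3, the master regulator of regulatory T cells, fell by 1.30 on the log2 scale over WT and KO (adjusted p = 0.00234). Foxp3 was at 1.34, 1.36 and 1.11 CPM in WT NoUV and at 0.775, 0.358 and 0.398 CPM in WT UV. The sum of 5 regulatory T cell markers, Foxp3 included, overlapped in WT, at 37.3 to 84.4 CPM without UV and 40.55 to 57.5 CPM after UV. In KO it fell without overlap, from 77.0 to 90.7 CPM to 60.6 to 66.9 CPM. In FL and in cKO both Foxp3 and this sum overlapped between UV and NoUV.

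Cd80 (ENSMUSG00000075122, chr16:38455561-38496335, plus strand) encodes a CD28 and CTLA-4 ligand that antigen-presenting cells display when activated. Its 250 bases before the RefSeq start, chr16:38458683-38458932 on the plus strand, are shown because Cd80 was called in both experiments; capitals mark an AP-1 match at positions -42 to -36 from the start, a motif found in 7.81% of promoters.
Cd80: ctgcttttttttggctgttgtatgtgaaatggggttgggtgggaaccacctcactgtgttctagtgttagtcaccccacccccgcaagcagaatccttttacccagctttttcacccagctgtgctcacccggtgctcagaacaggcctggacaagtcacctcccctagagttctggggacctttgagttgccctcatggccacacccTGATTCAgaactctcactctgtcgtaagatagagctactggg
This start site lies inside the gene model of the count table, and the match is a description only.

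KO UV libraries held 4.59, 4.66 and 4.44 CPM of Cd80, the 3 highest values of the whole-body experiment. KO NoUV libraries held 2.39, 2.66 and 3.18 CPM, WT NoUV libraries 2.31, 2.75 and 2.51 CPM, and WT UV libraries 1.81, 1.63 and 2.65 CPM. The KO UV group overlapped no other, while the remaining 3 groups overlapped each other. The UV change was 0.73 ± 0.231 in KO (adjusted p = 0.0368) and -0.31 ± 0.236 in WT (adjusted p = 0.398), and the difference between them, 1.05 with a 95% interval of 0.33 to 1.76, did not pass the test over all genes (adjusted p = 1.000, edgeR). KO exceeded WT by 1.17 ± 0.235 after UV (adjusted p = 0.0733) and by 0.65 ± 0.165 over both treatments (adjusted p = 0.0370). The call in KO was lost without any 1 of the 6 KO libraries and without WT NoUV 2 (adjusted p from 0.0502 to 0.145), and the call over both treatments was lost in 9 of the 12 fits that left out 1 library (adjusted p up to 0.101). It was also lost with no filter (adjusted p = 0.0688).

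In the keratinocyte experiment Cd80 rose with UV over FL and cKO by 0.74 ± 0.228 (adjusted p = 0.0273, edgeR, n = 4 libraries per group). FL libraries held 2.12, 2.79, 4.50 and 1.79 CPM without UV and 3.41, 4.48, 4.42 and 6.44 CPM after UV. In cKO the values were 2.03, 1.85, 2.84 and 2.18 CPM without UV and 2.14, 5.05, 3.57 and 4.17 CPM after UV. In each genotype 1 library kept the groups from separating, FL NoUV 3 and cKO UV 1. The changes were alike in size, 0.73 in FL and 0.75 in cKO, with a difference of 0.02 and a 95% interval of -0.93 to 0.96. The call was lost without FL NoUV 1 and cKO UV 3 together (log2 change 0.69, adjusted p = 0.0613) and in 6 of the 16 fits that left out 1 library (adjusted p up to 0.0695). Set beside each other, the UV changes in WT and FL differed by -1.02 (95% interval -1.91 to -0.14, adjusted p = 0.278 in the model of all 28 libraries).

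Msr1, a macrophage scavenger receptor, and Plek and Sdcbp had the levels most like Cd80, with r of 0.89, 0.86 and 0.85. Of 10 macrophage markers, 5 were called higher over WT and KO (37.3% of all genes called) and 4 over FL and cKO (24.3%), with none lower. Cd14, a receptor for bacterial lipopolysaccharide, rose by 2.24 and 1.33 on the log2 scale. The summed level of the 10 markers was 925 to 1610 CPM in KO UV and 621 to 895 CPM in KO NoUV. In WT the UV and NoUV sums overlapped, at 649 to 957 against 449 to 803.5 CPM. They also overlapped in FL (757 to 1257 against 297.5 to 952 CPM) and cKO (315 to 895.5 against 349.5 to 739 CPM). The part of these markers in the Cd80 values was not tested.

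Cd86 (ENSMUSG00000022901, chr16:36603869-36666081, minus strand), the other CD28 and CTLA-4 ligand, was not called by edgeR's main fit in any comparison. WT libraries held 7.93, 8.02 and 9.94 CPM without UV and 10.5, 10.5 and 13.5 CPM after UV. KO libraries held 12.7, 14.1 and 13.0 CPM without UV and 10.3, 21.4 and 15.99 CPM after UV. Without UV all KO libraries lay above all WT libraries, and WT UV libraries lay above WT NoUV libraries, but neither difference passed the test. The UV change over WT and KO was 0.34 ± 0.165 (adjusted p = 0.1255, edgeR), and it was called without KO UV 1 (0.43, adjusted p = 0.0324). The KO minus WT difference over both treatments was 0.55 ± 0.165 (95% interval 0.19 to 0.90, adjusted p = 0.0586), and it was called by DESeq2 (adjusted p = 0.0186) and by edgeR with no filter (adjusted p = 0.0459). In FL and cKO the values ran from 5.64 to 17.4 CPM, all groups overlapped, and the UV change was 0.28 ± 0.225 (adjusted p = 0.388). Cd53, Tifa and Cd33 were most like Cd86, with r of 0.89, 0.84 and 0.84; Cd53 and Cd33 encode surface proteins of leukocytes and myeloid cells.

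Tigit (ENSMUSG00000071552, chr16:43648867-43664146, minus strand), the receptor of T and NK cells that competes for PVR, was lower after UV in KO. The counts were 17, 21 and 21 in KO NoUV (0.467, 0.494 and 0.608 CPM) and 1, 5 and 1 in KO UV (0.0345, 0.174 and 0.0244 CPM). In WT the counts were 14, 12 and 5 without UV and 8, 6 and 9 after UV (0.149 to 0.379 and 0.165 to 0.258 CPM). The 3 KO NoUV libraries were the highest of the experiment, the KO groups did not overlap, and KO UV, WT NoUV and WT UV overlapped each other. The log2 change was -2.78 ± 0.618 in KO (adjusted p = 0.00646), -0.30 ± 0.548 in WT (adjusted p = 0.751) and -1.54 ± 0.417 over both (adjusted p = 0.0105, edgeR). The difference between the changes, -2.48 with a 95% interval of -4.29 to -0.67, did not pass the test over all genes (adjusted p = 1.000). Both calls held without any single library, but not without KO NoUV 2 and KO UV 3 together (adjusted p = 0.0829 in KO and 0.0579 over both). The call in KO was also lost with the tissue scores (adjusted p = 0.0752), and both were lost with the T cell score (adjusted p = 0.218 and 0.343). In the keratinocyte experiment Tigit had 0 to 9 counts per library and was not tested.

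Lag3 (ENSMUSG00000030124, chr6:124904361-124911705, minus strand), a CD4-related inhibitory receptor, was higher after UV in both experiments. WT libraries held 0.837, 0.663 and 0.508 CPM without UV and 1.16, 2.54 and 0.882 CPM after UV, and KO libraries 0.796, 1.27 and 0.695 CPM without UV and 1.00, 1.53 and 1.20 CPM after UV. The WT groups did not overlap and the KO groups did. The change over WT and KO was 0.80 ± 0.290 (adjusted p = 0.0442), and it fell to 0.49 (adjusted p = 0.153) without WT UV 2, the library with the highest value. The call was lost in 8 of the 12 fits that left out 1 library. With the hair follicle and skeletal muscle scores the value was 0.13 (adjusted p = 0.847), and with the T cell score 0.49 (adjusted p = 0.784). The summed skeletal muscle markers were at 9459 to 14537 CPM in WT NoUV and 16185 to 23343 CPM in WT UV, and the hair follicle markers at 98.2 to 146.7 and 22.7 to 59.2 CPM.

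FL libraries held 0.283, 0.620, 0.512 and 0.971 CPM of Lag3 without UV and 1.49, 1.16, 1.12 and 2.14 CPM after UV. In cKO the values were 1.74, 1.53, 1.04 and 2.18 CPM without UV and 2.099, 2.52, 1.51 and 2.88 CPM after UV. FL without UV lay below each of the other groups with no overlap. Its lowest value, 0.283 CPM, came from 2 counts in the shallow library FL NoUV 1, where 3 counts would amount to 0.4215 CPM. The UV change was 1.22 ± 0.362 in FL (adjusted p = 0.0497), 0.50 ± 0.339 in cKO (adjusted p = 0.390) and 0.86 ± 0.248 over both (adjusted p = 0.0191), with a difference, cKO minus FL, of -0.73 (95% interval -1.77 to 0.32, adjusted p = 1.000). The call over both genotypes held without any single library, but not with no filter (adjusted p = 0.0639) or with the tissue scores (adjusted p = 0.0961), whereas that in FL alone was lost in 15 of 16 such fits (adjusted p up to 0.160). Without UV, cKO exceeded FL by 1.34 ± 0.360 (95% interval 0.58 to 2.11), but this did not pass over all genes (adjusted p = 0.923).

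Slc38a3, Plekha4 and Pdlim7 had the levels most like Lag3, each with r of 0.84, and none of them is a T cell gene. Lag3 did not follow T cell markers: after centring on group means, r with the mean log2 level of the 13 T cell markers was -0.01 over 28 libraries, against 0.41 for Ctla4, 0.49 for Havcr2 and 0.53 for Cd274. Among pairs of the 10 genes the highest such r was 0.61, between Pdcd1lg2 and Ctla4.

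Havcr2 (ENSMUSG00000020399, chr11:46454935-46481255, plus strand) encodes TIM-3. WT libraries held 6.17, 5.21 and 4.45 CPM without UV and 6.10, 3.92 and 3.30 CPM after UV. KO libraries held 10.1, 8.69 and 7.61 CPM without UV and 5.31, 7.45 and 5.20 CPM after UV. KO NoUV libraries were the 3 highest of the experiment, and the KO UV group lay below them with no overlap. No comparison passed edgeR's test: the UV change was -0.56 ± 0.253 in KO (adjusted p = 0.134), and KO exceeded WT by 0.74 ± 0.253 without UV (adjusted p = 0.213) and by 0.59 ± 0.180 over both treatments (adjusted p = 0.0610, edgeR). The last difference was called by DESeq2 (adjusted p = 0.0163) and by edgeR with replicate number as a block (adjusted p = 0.0463). The UV change over WT and KO was -0.41 ± 0.180 (adjusted p = 0.0939, edgeR). It was called without WT UV 1 (-0.57, adjusted p = 0.0178) and with the tissue scores (-0.78, adjusted p = 0.0341). With only the groups compared, the UV change in KO was called (adjusted p = 0.0377). In FL and cKO the values ran from 1.37 to 4.44 CPM with all groups overlapping. Il2rb, Flt3 and Nkg7 were most like Havcr2, with r of 0.85, 0.81 and 0.80; they mark NK and T cells, dendritic cells, and cytotoxic cells, in that order.

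Lgals9 (ENSMUSG00000001123, chr11:78962974-78984946, minus strand), which encodes the TIM-3 ligand galectin-9, was the most abundant of the 10 genes and was not called in any comparison by edgeR's fit to all libraries. Its promoter is shown because it was the only one of the 8 with an ISRE match, a motif held by 3.44% of promoters. The bases cover chr11:78984925-78985174 on the minus strand, and capitals mark a match, on the other strand, at positions -55 to -46 from the start; another lies 16 to 25 bases after it and is not shown.
Lgals9: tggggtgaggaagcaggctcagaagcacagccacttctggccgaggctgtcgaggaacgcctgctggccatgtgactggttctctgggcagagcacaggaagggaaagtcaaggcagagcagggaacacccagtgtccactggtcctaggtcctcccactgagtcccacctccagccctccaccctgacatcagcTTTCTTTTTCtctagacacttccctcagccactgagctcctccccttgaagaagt
Lgals9 ranged from 31.2 to 69.7 CPM over WT and KO libraries and from 42.7 to 77.3 CPM in the keratinocyte experiment. KO UV libraries, at 56.0, 69.7 and 49.1 CPM, all lay above WT UV libraries, at 37.5, 38.7 and 47.5 CPM, but the difference of 0.50 ± 0.201 did not pass (adjusted p = 0.292). The UV change was 0.23 ± 0.142 over WT and KO (adjusted p = 0.219) and 0.08 ± 0.122 over FL and cKO (95% interval -0.17 to 0.34, adjusted p = 0.655). Over WT and KO edgeR called it without WT NoUV 1 (0.35, adjusted p = 0.0388), and in KO with only the groups compared (0.43, adjusted p = 0.0441). Ly6a, Pf4 and Cbr2 were most like Lgals9, with r of 0.79, 0.78 and 0.77.

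**Figure D3:**
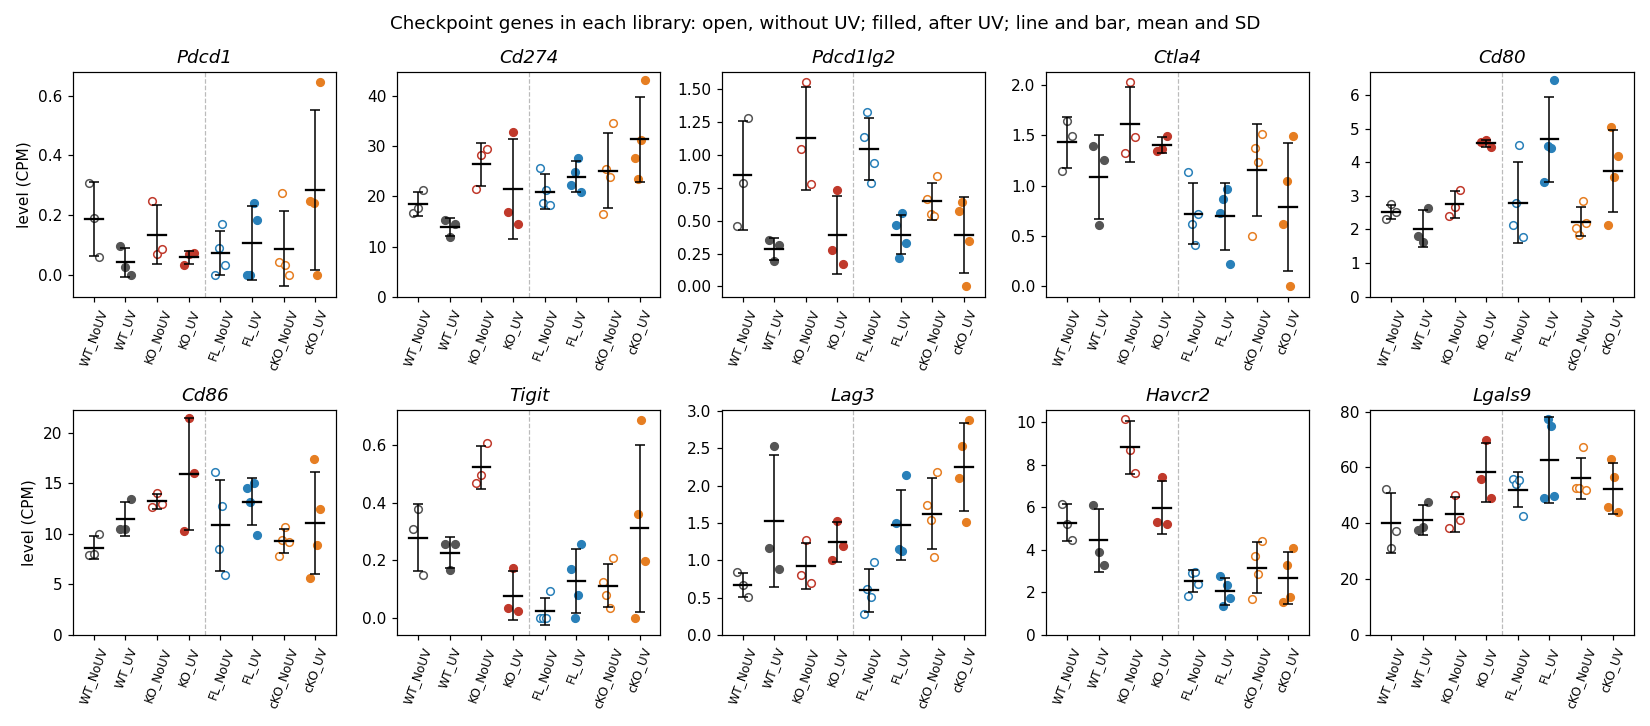
Level in CPM of each checkpoint gene in each library of the 8 groups, with the group mean and SD; the dashed line parts the whole-body from the keratinocyte experiment, which were scaled separately. Cd80 in KO UV, Tigit in KO UV and Lag3 in FL NoUV stand apart from their neighbours, and Pdcd1 and Tigit rest on few counts.

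Counted together, the checkpoint genes did not stand out from the genome under UV. In WT 0 of 9 tested passed edgeR's test, against 18.7% of all genes; 2 had an unadjusted p under 0.05, as had 32.1% of all genes, and DESeq2 called 2. In KO 2 of 9 were called, against 22.4% of all genes. In FL 1 of 8 was called, against 7.62%. In cKO 0 of 8 were called by edgeR, against 9.72%; 1 had an unadjusted p under 0.05, against 25.4%, and DESeq2 called 0. UV and NoUV libraries did not overlap for 4 of 9 genes in WT (29.4% of all genes), 4 of 9 in KO (50.7%), 2 of 8 in FL (14.5%) and 0 of 8 in cKO (17.6%). With so few members, shares of this size are near the background, so the count of called genes is no result about checkpoint genes. Without KO NoUV 2 and KO UV 3 together, 1 of 9 was called over WT and KO, Pdcd1lg2. The median log2 change of the tested members was -0.30 over WT and KO and 0.17 over FL and cKO, against 0.01 for all genes in each.

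**Figure D4:**
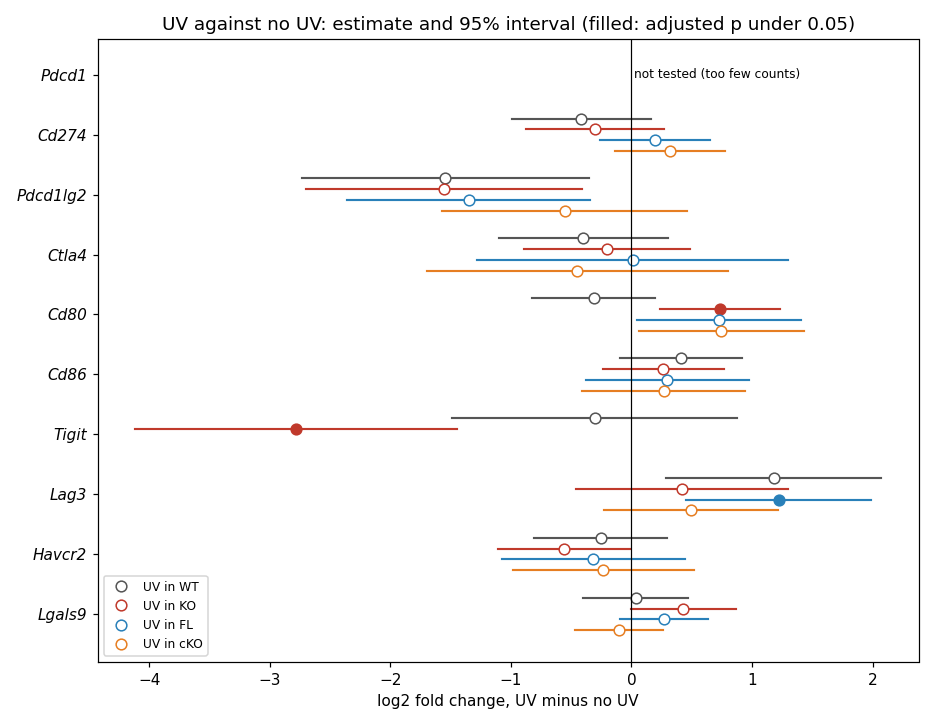
UV change of each gene in WT, KO, FL and cKO on the log2 scale, with 95% intervals of edgeR's fit; filled points passed an adjusted p of 0.05, and Pdcd1, and Tigit in FL and cKO, were not tested. Pdcd1lg2 lies below 0 in all 4 genotypes and Lag3 above 0 in all 4, while Cd80 lies below 0 in WT and above 0 in the other 3.

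The genotype comparisons gave fewer calls. Against WT without UV, edgeR called 0 of 9 in KO (0.00982% of all genes), 2 had an unadjusted p under 0.05 (15.8%) and DESeq2 called 0. After UV edgeR called 0 of 9 (0.0442%), 4 had an unadjusted p under 0.05 (15.1%) and DESeq2 called 1. The KO and WT libraries did not overlap for 4 of 9 without UV, namely Cd274, Havcr2, Tigit and Cd86, each higher in KO, and for 2 of 9 after UV, Cd80 and Lgals9, against 24.4% and 22.2% of all genes. The median difference of the members was 0.46 without UV, 0.43 after UV and 0.42 over both treatments, against -0.01, 0.03 and 0.02 for all genes. In cKO against FL, edgeR called 0 of 8 without UV and 0 of 8 after UV, as it called 0% of all genes. An unadjusted p under 0.05 was reached by 1 without UV (4.71% of all genes), 0 after UV (5.3%) and 2 over both treatments (11%), and DESeq2 called 0, 0 and 1. The libraries did not overlap for 1 of 8 without UV, Lag3, and 0 of 8 after UV, against 2.2% and 2.73% of all genes. The median differences there were 0.19, 0.21 and 0.13. No member's UV change passed a test of its difference between genotypes: by edgeR and DESeq2 it was 0 of 9 for KO minus WT and 0 of 8 for cKO minus FL (0% of all genes each), with 2 (1.54%) and 0 (1.26%) at an unadjusted p under 0.05. Between WT and FL it was 0 of 9 (1.2% of all genes), with 1 at an unadjusted p under 0.05 (13.4%) and 0 by DESeq2.

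**Figure D5:**
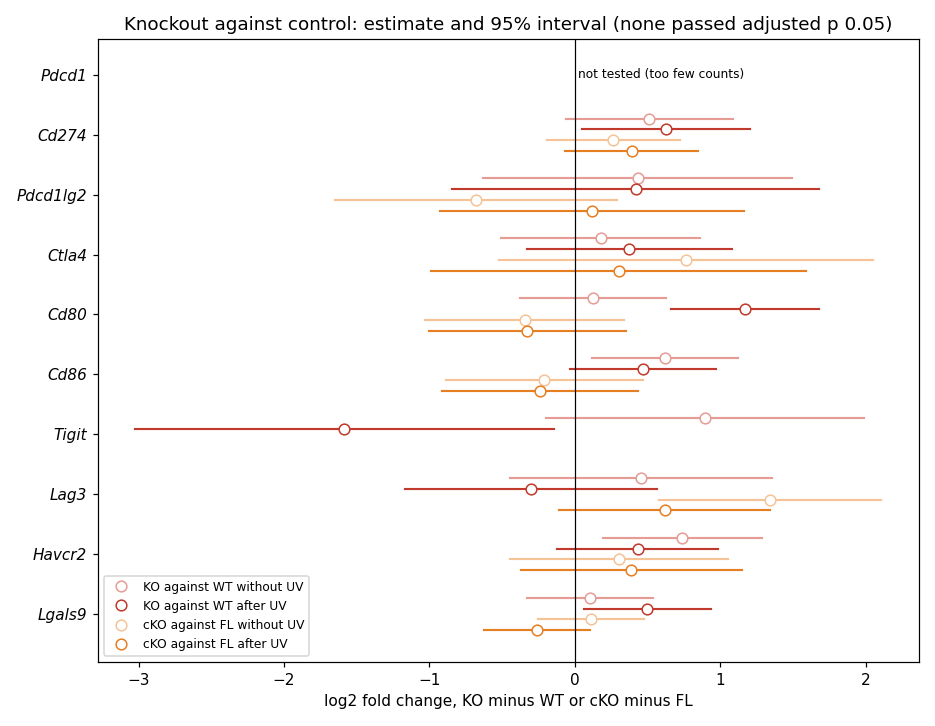
Knockout minus control difference of each gene on the log2 scale, without and after UV in both experiments, with 95% intervals of edgeR's fit. Most KO minus WT estimates lie above 0, and no estimate passed an adjusted p of 0.05.

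Partners of TIGIT changed in opposite directions with UV. Pvr, its main ligand, rose by 0.89 ± 0.134 over WT and KO (adjusted p = 2.39e-04) and by 1.14 ± 0.124 over FL and cKO (adjusted p = 1.58e-05). It was at 8.63 to 9.75 CPM in WT NoUV and 14.6 to 21.8 CPM in WT UV, and at 11.1 to 17.4 CPM in FL NoUV and 25.7 to 33.9 CPM in FL UV, with no overlap. Nectin2, the other ligand, fell by 1.06 on the log2 scale over WT and KO (adjusted p = 1.91e-04) and by 0.67 over FL and cKO (adjusted p = 0.00316). Of 12 other inhibitory ligands tested, 1 rose and 5 fell over WT and KO (37.3% of all genes called in either direction), Cd200, Cd276, Vtcn1 and Btnl2 being the other falls, and over FL and cKO (24.3%) 2 rose and 1 fell, Vsig4 being the other rise at 1.84 ± 0.574.

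Of 9 costimulatory receptors, 4 fell and 0 rose with UV in the whole-body experiment, a share near the 37.3% of all genes called. The falls were Icos by 2.09, Cd28 by 1.37, Cd27 by 1.12 and Cd2 by 0.92 on the log2 scale. Cd28 was at 1.01, 1.70 and 3.29 CPM in WT NoUV and at 0.968, 0.524 and 0.939 CPM in WT UV. Over FL and cKO, where 24.3% of all genes were called, 0 of 9 fell and 2 rose, Tnfrsf4 (OX40) by 0.61 ± 0.178 and Cd40 by 0.84 ± 0.296. Among costimulatory ligands, Tnfsf9 (4-1BBL) rose in both experiments, by 1.22 ± 0.267 and 1.89 ± 0.271, and Cd40lg fell by 3.74 over WT and KO (adjusted p = 8.54e-04). Of these ligands, 1 of 6 rose and 1 fell over WT and KO (37.3% of all genes called). Over FL and cKO (24.3%) 3 of 5 rose. Of the other inhibitory receptors, 1 of 11 rose and 3 fell over WT and KO (37.3% of all genes called). Sirpa fell by 0.90, Vsir by 0.92 and Cd160 by 1.38, while Ceacam1 rose by 0.54. Over FL and cKO (24.3% of all genes called) 1 of 9 rose, Pilra by 1.38 ± 0.377, and none fell.

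Of 13 T cell markers, 8 fell and 0 rose over WT and KO (37.3% of all genes called), with a median of -0.94. Over FL and cKO (24.3% of all genes called) 0 of the 13 markers were called, with a median of -0.31. Their summed level was 34.7 to 42.9 CPM in WT UV against 49.4 to 60.2 in WT NoUV, and 37.0 to 49.0 in KO UV against 65.5 to 75.8 in KO NoUV. All 13 had counts. With the mean log2 level of these markers as a covariate, Pdcd1lg2 was at 0.52 (adjusted p = 0.750) and Tigit at -1.97 (adjusted p = 0.343) over WT and KO; this fit called 272 of all genes, against 7597 without the covariate. The level of T cell markers and UV cannot be told apart in this experiment.

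Of 15 signalling genes upstream and downstream of PD-L1 and PD-1, 7 fell and 0 rose with UV over WT and KO, near the 37.3% of all genes called. Irf2, an antagonist of Irf1 at interferon-responsive promoters, fell by 1.33 (adjusted p = 4.98e-06), Nfkb1 by 0.71, Jak2 by 0.78 and Ptpn6, which encodes the phosphatase SHP-1, by 0.69. Over FL and cKO (24.3% of all genes called) Nfkb1 fell by 0.50 and Irf2 by 0.32, and Rela rose by 0.82 ± 0.180. The UV change of Irf2 was lower in WT than in FL by 0.93 ± 0.208 on the log2 scale (adjusted p = 0.0269 in the model of all 28 libraries). Among enzymes, receptors and cytokines that restrain T cells, Il10 rose by 2.09 ± 0.404 over WT and KO (adjusted p = 0.00132) and Adora2a fell by 1.14. Over FL and cKO (24.3% of all genes called) 0 of 6 were called.

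In KO against WT over both treatments, further inhibitory and costimulatory genes were higher besides Cd80, in a comparison that called 7.45% of all genes (235 to 3076 genes when 1 library was left out, 1517 with all). Lair1, a collagen receptor of leukocytes, was higher by 1.48 ± 0.283, Cd200r1 by 0.87 ± 0.239, Vsig4 by 1.56 ± 0.406 and Cd226, the activating competitor of TIGIT, by 1.18 ± 0.285, and Nectin2 was lower by 0.64 ± 0.155. Ido1 and Tdo2, enzymes that degrade tryptophan, were higher by 2.06 ± 0.524 and 1.98 ± 0.530. Ido1 remained under 1 CPM, at 11 to 22 counts in KO NoUV and 1 to 4 in WT NoUV. Besides Vsir, 2 of 11 inhibitory receptors were higher, 1 of 12 inhibitory ligands was higher and 1 lower, 1 of 9 costimulatory receptors and 0 of 6 costimulatory ligands were higher, and 2 of 8 genes of the adenosine and tryptophan list were higher. Keratinocyte markers were lower in KO, 5 of 10 called, among them Krt10 at 7110 ± 1096 CPM in KO NoUV and 11967 ± 632 in WT NoUV, and their part in these differences was not tested. Between cKO and FL, 0 genes of any of these lists were called.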

How the data were processed

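RNA-seq counts per gene were analysed in 28 libraries of mouse skin, 12 of a whole-body experiment and 16 of a keratinocyte experiment, which carry different batch labels and were fitted separately. The authors deposited raw counts without normalization. Per the submitters' processing notes, the tools were cutadapt 4.6 for trimming, HISAT2 2.1.0 with GRCm38 for alignment and featureCounts of Subread for counting; the labels' protocols name a stranded, ribosome-depleted library kit, and strand and multi-mapping settings are not given in the sources used here. Coordinates come from the whole-body table, because starts in the other table are not those of GRCm38, and genes were joined by Ensembl identifier.

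Counts were tested with edgeR 4.0.16 (R 4.3.3): library sizes scaled by TMM, genes filtered by filterByExpr, quasi-likelihood fits (robust) with 1 coefficient per group, two-sided p-values adjusted by Benjamini-Hochberg over all 20365, 19718 or, in the joint model, 21851 genes tested, threshold 0.05. Of the 10 members, 9 passed the filter for WT and KO, 8 for FL and cKO, and 9 for all 28 libraries. "Called" means an adjusted p under 0.05, the SE is that of the fit, 95% intervals include variation between mice, and 3 counts were the floor for reading a level, which covers counting error only. Named genes were the 10 members, Vsir, up to 4 called genes per pathway list with the smallest p, and the 3 genes most like each member with at least 20 counts per library on average in both experiments; marker genes, Gbp4 by library and other called genes of a list were named after their values were seen. The members and lists were chosen with earlier results of these data known. Scripts were tested on simulated data. Alternatives were RLE scaling, no filter, DESeq2 1.42.0, a replicate block, only the groups compared, marker scores as covariates and leaving out libraries; 2 of the latter were chosen after seeing the data. Same-numbered libraries deviated together in every pair between KO NoUV and KO UV (r from 0.128 to 0.176) and between cKO NoUV and cKO UV (r from 0.229 to 0.486), but not in every pair of the other group comparisons; in those 2 the block changed no count of called members. The result for 1 gene of the pathway lists is not reported here.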

Additional observations from a re-analysis of the deposited data

Results flagged for a closer look

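Of the 40 sets of 4 keratinocyte libraries examined for a lone extreme value in a checkpoint gene, 4 had one, and chance flags about 1 in 20 sets. Pdcd1 was at 0.275 CPM in library cKO NoUV 2, against 0 to 0.0415 CPM in the other 3 libraries of its group. Tigit was at 0.094 CPM in FL NoUV 4, from 3 counts, against 0 in the other 3. Lgals9 was at 42.7 CPM in FL NoUV 4, below the 54.0 to 55.9 CPM of the other 3, and at 67.2 CPM in cKO NoUV 3, above the 52.0 to 52.8 CPM of the other 3. Groups of 3 in the whole-body experiment were not examined this way.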

How the results depend on the processing

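Counts of called checkpoint genes moved with the processing as follows. UV in WT (0 of 9) became 1 with no filter, 2 with DESeq2 and 0 to 1 when 1 library was left out. UV in KO (2) became 0 with the T cell score as a covariate, 0 with hair follicle and skeletal muscle scores, and 5 with only the groups compared. It became 3 with DESeq2, 1 to 3 with 1 library left out, and 0 without KO NoUV 2 and KO UV 3 together. UV over WT and KO (3) became 0 with the T cell score and 1 without those 2 libraries. It became 2 with no filter (Lag3 was lost), 2 with the tissue scores (Tigit and Havcr2), and 2 to 4 with 1 library left out. KO against WT after UV (0) became 1 with the tissue scores, 1 with DESeq2 and 0 to 1 with 1 library left out. KO against WT over both treatments (1) became 2 with no filter, 2 with the replicate block, 0 with the T cell score, 0 with the tissue scores, 4 with DESeq2, 0 without those 2 libraries, and 0 to 2 with 1 library left out. UV in FL (1) became 0 with no filter, either covariate fit or only the groups compared, 2 with DESeq2, and 0 to 1 with 1 library left out. UV in cKO (0) became 1 with the tissue scores, and cKO against FL over both treatments (0) became 1 with DESeq2. UV over FL and cKO (2) became 0 with no filter, 3 with DESeq2 and 1 to 3 with 1 library left out. With the tissue scores it stayed at 2, with Ctla4 in place of Lag3. The cause of these moves was not tested, beyond the fewer samples or the added covariates of each fit.

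Of 128 tested values of checkpoint genes, 46 changed sign in at least 1 alternative, and 1 of these was called, Pdcd1lg2 over WT and KO. With the T cell score, Pdcd1lg2 was at 0.46 for UV in WT, 0.58 in KO and 0.52 over both, Cd274 at 0.43 in KO and 0.35 over both, and Ctla4 at 0.11 for UV over FL and cKO. Cd274 was at 0.088 for UV in KO with the tissue scores, and Ctla4 at 0.034 for UV over FL and cKO without FL NoUV 1 and cKO UV 3 together. Elsewhere the farthest opposite values were 2.19 for Pdcd1lg2 in the UV change of KO minus WT and -1.38 for Ctla4 under UV in FL. The main values of these were -0.01 and 0.01. In KO against WT, Pdcd1lg2 reached -1.30 without UV, -0.96 after UV and -1.02 over both treatments. Ctla4 reached -1.09 in cKO against FL after UV. Tigit reached -0.75 and Cd274 -0.31 in KO against WT without UV, and Cd274 0.27 under UV in WT.

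Over all genes, counts moved by more than 1.5 times in the following fits. With the T cell score, UV in WT fell to 83 genes, in KO to 135 and over both to 272; KO against WT after UV and over both fell to 1 each. With the tissue scores they became 1446, 1867 and 4904 for the UV comparisons, and 1, 1152 and 45 for KO against WT without UV, after UV and over both, and 499 for WT minus FL. With DESeq2 the KO comparisons gave 573, 429 and 3363, UV in FL 2304, the cKO comparisons 6, 5 and 90, and WT minus FL 715. With no filter KO against WT gave 185 without and 162 after UV, UV in FL 992, UV in cKO 1276, WT minus FL 137, and cKO against FL 1 without UV and 1 over both. With only the groups compared UV gave 1288 in WT, 7493 in KO and 953 in FL, and KO against WT without UV 4. Without KO NoUV 2 and KO UV 3, UV in KO gave 1468 and KO against WT 1 after UV and 211 over both. With 1 library left out, KO against WT ran from 2 to 27 without UV, 2 to 155 after UV and 235 (without KO UV 2) to 3076 (without WT NoUV 3) over both, UV in KO from 2832 to 5683, UV in FL from 884 to 1696, UV in cKO from 1178 to 2424, and WT minus FL from 65 to 423.

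Replicate numbers are shared between groups. In the whole-body and keratinocyte experiments, 11 of 18 and 13 of 24 same-numbered pairs deviated together with r over 0.1, against 6 of 36 and 23 of 72 differently numbered pairs, and 6 of 12 and 10 of 16 libraries correlated best with their own number. With the replicate block, called checkpoint genes numbered 2 for KO against WT over both treatments (Havcr2 and Cd80), and the counts in the other 14 comparisons did not move; over all genes KO against WT gave 22 without and 31 after UV, and cKO against FL 1 without UV and 1 over both. RLE scaling changed no count of called checkpoint genes. Depth limits Pdcd1 in both experiments and Tigit in the keratinocyte experiment.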
